A study of Mus musculus with 4 samples.

Results

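A set of 10 genes of leukotriene and prostaglandin biology was read out across the immune cells of the mouse lung: Alox5, Alox5ap, Ltc4s and Alox15 for the lipoxygenase route, Ptgs1, Ptgs2 and Hpgds for prostaglandin synthesis, and the receptors Ptger2, Ptger4 and Ptgir. They were chosen by gene symbol, and all 10 of the 10 symbols were found once among the 31053 genes of the count matrices. The study deleted Ift20, a gene of intraflagellar transport, in T cells and looked at the airway response to papain. All mice were C57BL/6 males aged 5 to 10 weeks and carried floxed Ift20 alleles. WT mice were Ift20 f/f without a Cre, and KO mice were Ift20 f/f CD4 cre, in which the recombinase acts in T cells that pass through a CD4-expressing stage. Papain, a protease allergen, was given into the nose at 25 µg on 3 consecutive days with a further dose on day 14, and lungs were taken on day 15, while control mice were given DPBS, a buffered saline. Live CD45.2+ cells were sorted and 1 library of 3′ single-cell RNA was made for each genotype with each treatment, called Papain WT, Papain KO, DPBS WT and DPBS KO. How many mice went into a library is not given in the sources used here, and a library is 1 sample, so no comparison between groups below has a replicate check and no test was possible.

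Leukotrienes and prostaglandins are lipid mediators made from arachidonic acid. The product of Alox5, with its membrane partner the product of Alox5ap, makes leukotriene A4, which the product of Ltc4s joins to glutathione to give the cysteinyl leukotrienes that constrict airways and draw leukocytes. The cyclooxygenases of Ptgs1, which is largely constitutive, and Ptgs2, which is induced by inflammatory signals, open the route to prostaglandins, and Hpgds makes prostaglandin D2 from their product. Ptger2 and Ptger4 encode receptors of prostaglandin E2 and Ptgir the receptor of prostacyclin, all of which raise cyclic AMP in the cell. Alveolar macrophages, neutrophils and mast cells are known lipid mediator sources in the lung.

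The libraries held 5863 to 8552 barcodes and 53854420 to 75675956 unique molecular identifiers (UMIs), and after filtering 5427 to 7570 cells were kept in each, 25874 in all, with medians of 5830.5 to 6678 UMIs a cell. Pairs of libraries shared 5 to 14 barcodes among the kept cells. Cells were clustered, and clusters were named from marker genes as cells like a known type, the ending "-like" being left out below. This gave 17 classes with at least 20 cells in every library, and 1470 cells (5.68%; 3.78% to 8.997% by library) stayed in unnamed clusters. No eosinophil class was formed, and only 6 cells were basophil or mast cell-like. In the CD4 T effector and regulatory class, Ift20 stood at 87.2 CPM in DPBS WT and 84.3 CPM in Papain WT, against 11.9 and 14.0 CPM in DPBS KO and Papain KO, while in alveolar macrophages it was 56.2 to 62.9 CPM in every library. CPM here means UMIs of a gene per 1e+06 UMIs of all cells of that class in that library. Alveolar macrophages made up 18.5% and 22.3% of cells in WT and KO with DPBS and 10.97% and 9.56% with papain. Intervals are 95% intervals that cover counting error only. Where 4 values are listed without names, WT and KO with DPBS come first and WT and KO with papain follow.

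The 10 genes were not all highest in the same cell class. Levels are ranked among the 17 classes only. By the median CPM of the 4 libraries, alveolar macrophages led for Alox5, Ltc4s and Ptger2, neutrophils for Alox5ap and Ptgs2, interstitial macrophages for Alox15, Ptgs1 and Hpgds, type 2 conventional dendritic cells (cDC2) for Ptger4, and group 2 innate lymphoid cells (ILC2) for Ptgir. For Alox5ap, Alox15, Hpgds, Ptger2 and Ptger4 the range over the 4 libraries overlapped that of the next class. The lead for Alox15 rested on a median of 0.805 CPM, and cDC2, with a median of 0, held 53.5% of its UMIs. Lymphocytes were low for the leukotriene genes, apart from Alox5 in ILC2. For instance, B cells had a median of 0.994 CPM of Alox5.

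**Figure D1:**
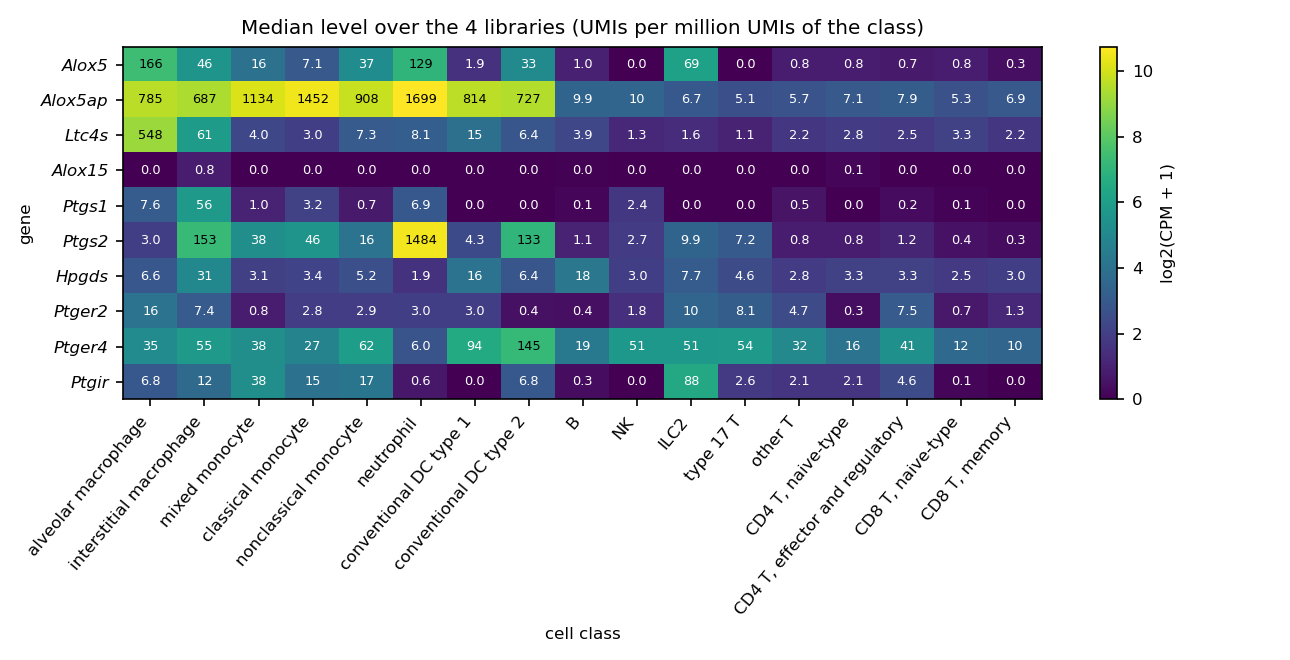
Median CPM over the 4 libraries of each gene (vertical axis) in each of the 17 cell classes (horizontal axis), with colour for log2(CPM + 1). Alox5ap is high in every myeloid class shown, while Ltc4s is high in alveolar macrophages (548 CPM) and Ptgs2 in neutrophils (1484 CPM).

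Alox5, which encodes 5-lipoxygenase, the first enzyme of the leukotriene route, was highest among the 17 classes in alveolar macrophages, at 177 and 173 CPM in WT and KO with DPBS and 140 and 160 CPM in WT and KO with papain. Neutrophils followed with 130, 98.8, 129 and 132 CPM in the same order. Outside the ranked classes, the 6 basophil or mast cell-like cells had 387 CPM with the 4 libraries pooled (95% interval 199.9 to 676, from 12 UMIs in 4 cells), above every alveolar macrophage library. The lowest alveolar macrophage library lay above the highest neutrophil library, so the ranges of these 2 classes did not overlap. ILC2 came next at 59.5 to 76.05 CPM, below every neutrophil library and overlapping interstitial macrophages at 33.9 to 62.9 CPM. Alveolar macrophages held 88.1% of all Alox5 UMIs of the 4 libraries. The partner gene did not stand above B cells in ILC2: Alox5ap had 4.62 to 14.4 CPM there, from 2 to 8 UMIs a library, against 9.16 to 11.6 CPM in B cells. At least 1 Alox5 UMI was seen in 29.0% of the 272 ILC2 (median 5458.5 UMIs a cell) and in 0.527% of the 7592 B cells (median 4285 UMIs). With each cell thinned to 1000 UMIs the shares were 5.54% and 0.132%, and the markers of alveolar macrophages in ILC2 stood at 0.313% of their level in alveolar macrophages, against 0.389% in B cells.

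Alox5ap, which encodes the protein that presents arachidonic acid to 5-lipoxygenase, was spread over all myeloid classes. Neutrophils had 1608 and 1700 CPM in WT and KO with DPBS and 1766 and 1698 CPM in WT and KO with papain. Classical monocytes had 1421 to 1637 CPM, so the ranges of the leading 2 classes overlapped, and both lay above the mixed monocyte cluster at 1079 to 1262 CPM. Alveolar macrophages ranked 6th at 727 to 810 CPM, yet as large and numerous cells they held 54.1% of all Alox5ap UMIs. B cells had 9.16 to 11.6 CPM.

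Ltc4s, the synthase of leukotriene C4, was seen mainly in alveolar macrophages. Alveolar macrophages had 599 and 532 CPM in WT and KO with DPBS and 549 and 547 CPM in WT and KO with papain, and they held 94.7% of all Ltc4s UMIs. Their median was 9.01-fold that of interstitial macrophages, the next class, and no library of the 2 classes overlapped. Neutrophils, which had the highest Alox5ap and the next highest Alox5, had 6.25 to 11.9 CPM of Ltc4s, near the 2.30 to 5.43 CPM of B cells. In 86 mature dendritic cells, too few to be ranked, Ltc4s stood at 58.4 CPM (95% interval 45.1 to 74.4) with the 4 libraries pooled, where Alox5 had 1 UMI.

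Alox5, Alox5ap and Ltc4s were also looked for in the same cell. All 3 were seen in 3446 of 3948 alveolar macrophages (87.3%, 95% interval 86.2% to 88.3%), in 43 of 226 interstitial macrophages (19.0%, 14.1% to 24.8%) and in 6 of 790 neutrophils (0.759%, 0.279% to 1.65%). Depth differed, with a median of 18675.5 UMIs in alveolar macrophages, 15780 in interstitial macrophages and 3182 in neutrophils. At 1000 UMIs a cell the shares were 3.72%, 0.885% and 0. Alox5 with Alox5ap alone was seen in 31.6% of neutrophils, and after thinning in 10.4% of neutrophils and 8.36% of alveolar macrophages. Alveolar macrophages made up 96.1% of the 3587 cells that held UMIs of all 3 genes. Within alveolar macrophages the share was 91.8% and 87.1% in WT and KO with DPBS and 78.2% and 89.8% with papain. The Papain WT cells, the lowest, also had the lowest median depth, 16872 UMIs against 18815.5 to 19731. They had the lowest Alox5 level as well, 140 CPM. The part of depth or of the Alox5 level in this share was not tested.

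**Figure D2:**
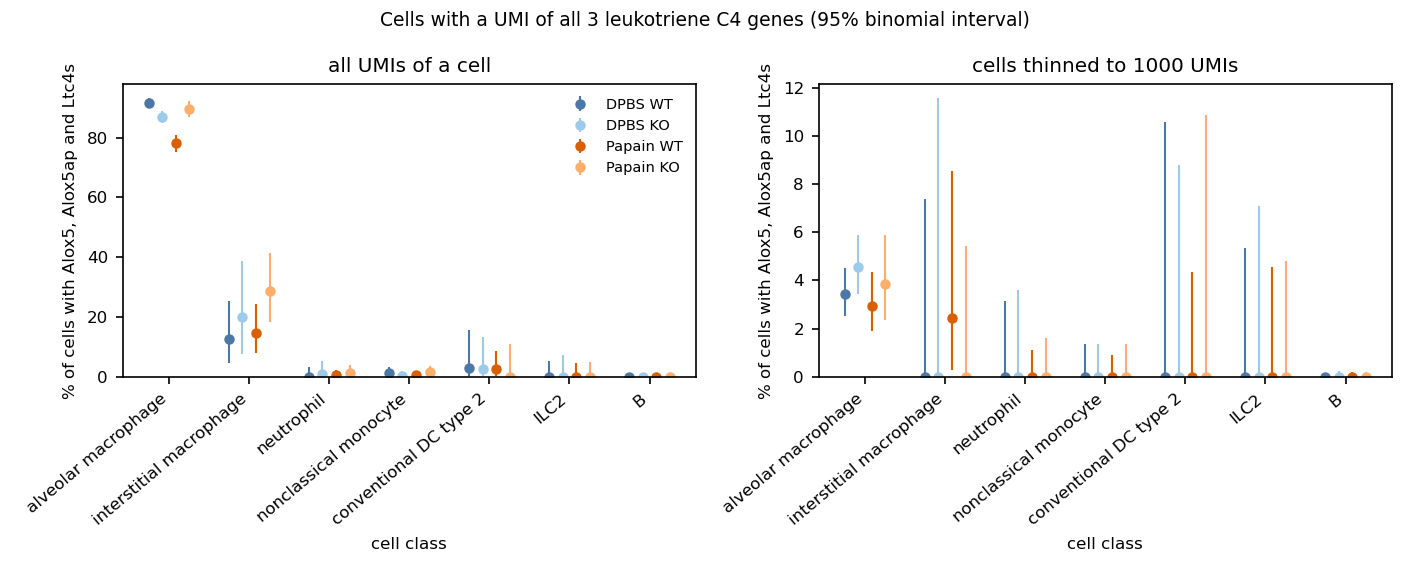
Share of cells with at least 1 UMI of each of Alox5, Alox5ap and Ltc4s (vertical axis, percent) by cell class (horizontal axis) and library (colour), with exact 95% binomial intervals, from all UMIs (left) and after thinning to 1000 UMIs a cell (right). Alveolar macrophages lie at 78.2% to 91.8% on the left, above every other class, and at 2.94% to 4.55% on the right.

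Alox15, which encodes a lipoxygenase that makes mediators linked to type 2 inflammation and to its resolution, was rare, with 86 UMIs in all 4 libraries together. Papain WT held 73 of them, Papain KO 11, DPBS WT 2 and DPBS KO 0. In cDC2, 46 UMIs came from 5 of the 83 Papain WT cells, 26 of them from 1 cell, and the other 3 libraries had 0 UMIs from 32 to 40 cells. Each of these 5 cells had UMIs of at least 3 of the cDC2 markers and none of them of 3 alveolar or interstitial macrophage markers. In interstitial macrophages, 21 UMIs came from 3 of the 82 Papain WT cells and 2 UMIs from 2 of the 66 Papain KO cells, with 0 in both DPBS libraries. An unnamed cluster, m10, that scored best for interstitial macrophages went the other way. There 8 UMIs came from 1 of the 7 Papain KO cells and 4 UMIs from 3 of the 155 Papain WT cells. Against a floor of 3 UMIs, the Papain WT level was at least 6.199-fold that of DPBS WT in cDC2 and at least 4.33-fold in interstitial macrophages. These values rest on 8 cells, and the gene passed the UMI minimum of the comparisons only through Papain WT, where it was high.

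**Figure D3:**
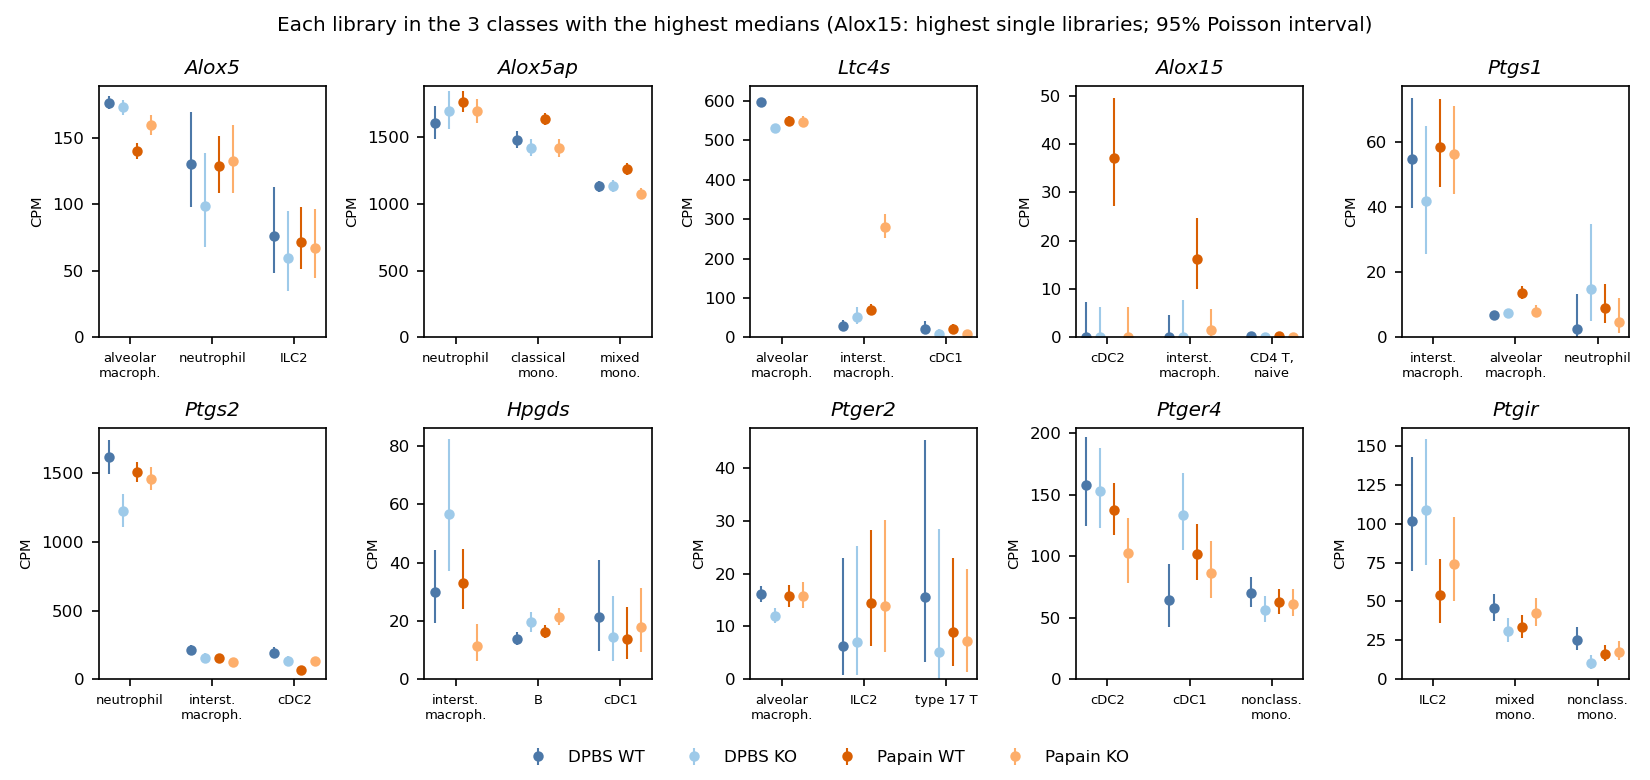
CPM of each gene (vertical axis, 1 panel a gene) in the 3 classes with the highest medians, or for Alox15 the highest single libraries, with 1 point a library (colour) and 95% Poisson intervals. The 4 libraries lie close together for Ltc4s and Alox5ap in their leading classes, while Ltc4s in interstitial macrophages is high in Papain KO (281 CPM).

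Ptgs1, the constitutive cyclooxygenase, was highest in interstitial macrophages, at 54.8 and 41.9 CPM in WT and KO with DPBS and 58.5 and 56.3 CPM in WT and KO with papain. This median was 7.29-fold that of alveolar macrophages, which had 6.78, 7.33, 13.7 and 7.91 CPM, and the ranges did not overlap. Alveolar macrophages nonetheless held 56.0% of the Ptgs1 UMIs. The 6 markers used for platelets and megakaryocytes, cells known for this enzyme, summed to 0 to 2.31 CPM in interstitial macrophages. These 6 do not include Pf4, which was used as an interstitial macrophage marker. The part of platelets in the Ptgs1 level was not tested.

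Ptgs2, the inducible cyclooxygenase, was highest in neutrophils. Neutrophils had 1618 and 1227 CPM in WT and KO with DPBS and 1510 and 1458 CPM in WT and KO with papain, a median 9.72-fold that of interstitial macrophages at 129 to 213 CPM. Ptgs2 UMIs were seen in 78.7% to 90.5% of neutrophils, and in 58.4% to 70.4% after thinning to 1000 UMIs, against 0.344% to 0.664% of B cells before thinning. Neutrophils held 50.5% of all Ptgs2 UMIs though they were only 790 cells. An unnamed cluster, m13, that scored best for neutrophils and next for nonclassical monocytes had 440 to 545 CPM. cDC2 had 194, 134, 71.0 and 133 CPM, overlapping interstitial macrophages. The summed level of 8 immediate early genes, used as signs of tissue dissociation, was 10500 to 13842 CPM in neutrophils and 5767 to 14664 CPM in cDC2, with DPBS WT highest in both, against 5093 to 5829 CPM in B cells. Their part in the Ptgs2 levels was not tested.

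The 250 bases before the RefSeq start of Ptgs2 (build GRCm38.p6, chr1:150099781-150100030, plus strand) are shown since this gene had the sharpest neutrophil level among the prostaglandin genes. The window was searched on both strands for GAGGAA (a PU.1 core), TTGCGCAA (a palindrome bound by C/EBP factors), TGACG (part of a cyclic AMP response element), CACGTG (an E box) and TATAAA (an element found near many start sites), and capitals mark the matches.
Ptgs2: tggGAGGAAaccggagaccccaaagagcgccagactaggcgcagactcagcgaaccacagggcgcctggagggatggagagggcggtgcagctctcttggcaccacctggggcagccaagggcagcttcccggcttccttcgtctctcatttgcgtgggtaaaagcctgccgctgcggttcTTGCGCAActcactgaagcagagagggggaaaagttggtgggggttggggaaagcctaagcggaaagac
It holds TTGCGCAA, whose match lies 69 bases before the start, and 1 GAGGAA. Of 32851 mouse promoter windows of the same length, 0.164% hold TTGCGCAA, 23.3% GAGGAA, 17.8% TGACG, 6.02% CACGTG and 12.4% TATAAA. Among the 8 members with a RefSeq entry here, Ptgs2 was the only one with TTGCGCAA, GAGGAA was found in Alox5, Ptgs1, Ptgs2, Hpgds and Ptgir, and no other motif was found in any of them. These are matches of letters and not shown to be binding sites.

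Hpgds, the haematopoietic synthase of prostaglandin D2, had the highest median in interstitial macrophages, with 29.9 and 56.6 CPM in WT and KO with DPBS and 33.1 and 11.3 CPM in WT and KO with papain. This range overlapped that of B cells at 13.9 to 21.5 CPM and of type 1 conventional dendritic cells (cDC1) at 13.8 to 21.5 CPM. B cells held 37.8% of all Hpgds UMIs, and 5.18% to 9.34% of B cells had a UMI (1.25% to 2.29% after thinning) against 1.40% to 2.61% of naive-type CD4 T cells, whose depth was greater. The 6 basophil or mast cell-like cells, a known site of this enzyme, had 161 CPM of Hpgds with the 4 libraries pooled (95% interval 52.3 to 376, from 5 UMIs in 3 cells), above the median of interstitial macrophages and with an interval that overlapped their range. Ptgs1 or Ptgs2 was seen with Hpgds in the same cell in 29 of 226 interstitial macrophages (12.8%, 95% interval 8.76% to 17.9%), in 5.32% of cDC2 and in 1.19% of alveolar macrophages.

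Among the receptors, Ptger2 was low everywhere. Alveolar macrophages had 16.1 and 12.0 CPM in WT and KO with DPBS and 15.7 and 15.8 CPM in WT and KO with papain and held 75.99% of its UMIs, and their range overlapped that of ILC2 at 6.34 to 14.4 CPM, which rested on 2 to 8 UMIs a library. Ptger4 was broader, present in myeloid, innate lymphoid and T classes. Its level was highest among the 17 classes in cDC2, at 158, 153, 137 and 102 CPM, and overlapped cDC1 at 64.5 to 134 CPM. Nonclassical monocytes, at 56.1 to 70.1 CPM, overlapped cDC1, and neutrophils were low at 2.99 to 10.7 CPM. Mature dendritic cells, pooled over libraries, had 219 CPM of Ptger4 (95% interval 193 to 248).

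Ptgir, the prostacyclin receptor, was highest among the 17 classes in ILC2. ILC2 had 101 and 109 CPM in WT and KO with DPBS and 53.96 and 73.9 CPM in WT and KO with papain. Every ILC2 library lay above the mixed monocyte cluster, the next class, at 31.2 to 45.6 CPM, which in turn lay above nonclassical monocytes at 10.3 to 25.5 CPM. At least 1 Ptgir UMI was seen in 30.4% to 42.0% of ILC2 and in 0.0885% to 0.286% of B cells. In both papain libraries an unnamed cluster, m8, stood above ILC2, at 109 and 111 CPM. Each ILC2 value came from 30 to 32 UMIs, and the papain over DPBS log2 ratio was -0.91 in WT (95% interval -1.68 to -0.15) and -0.55 in KO (-1.31 to 0.21).

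Papain was compared with DPBS within each genotype, and KO with WT within each treatment, with a change of at least 2-fold called where 2 libraries together had at least 20 UMIs of the gene in the class. The comparisons share libraries, each library entering 2 of them. In the leading class of each gene, papain over DPBS in WT was within 2-fold for 9 of the 10 genes, and 1 was higher, Alox15, where 3.34% of all genes tested in those classes were at least 2-fold higher and 2.35% lower. In KO, 9 genes could be compared and 1 was lower, Hpgds (background 4.21% higher and 1.96% lower). KO over WT in DPBS gave 0 of 9 (1.69% higher and 2.89% lower), and KO over WT in papain 2 of 10 lower, Alox15 and Hpgds (2.18% higher and 2.77% lower). The last Alox15 value, from 2 against 21 UMIs, was -3.33 on the log2 scale and turned to 0.61 at the finer clustering resolution of 1.6, where the Hpgds value went from -1.55 to -0.51, within 2-fold.

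The genes of the leukotriene route and Ptgs2 were close between libraries in their leading classes. For Ltc4s in alveolar macrophages, papain over DPBS was -0.12 on the log2 scale in WT and 0.04 in KO, with 95% intervals of -0.16 to -0.08 and -0.01 to 0.09. Alox5 there was -0.33 in WT (95% interval -0.41 to -0.26) and -0.11 in KO. Ptgs2 in neutrophils was -0.10 in WT and 0.25 in KO, and Alox5ap in neutrophils 0.13 and 0.00. In whole libraries Alox5 and Ltc4s differed more. Alox5 had 77.5 and 83.1 CPM of all cells in WT and KO with DPBS and 37.3 and 42.6 CPM with papain, and Ltc4s 248 and 244 CPM with DPBS and 130 and 129 CPM with papain. Alveolar macrophages, which hold most of both, were a smaller share of the cells in the papain libraries (10.97% and 9.56% against 18.5% and 22.3%).

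Over all 17 classes, 74 of 170 pairs of gene and class could be compared for papain over DPBS in WT, with 11 higher and 5 lower (background 3.79% and 2.04%) and a median log2 ratio of -0.04, beside 0.03 for all genes. In KO, 68 pairs gave 4 higher and 5 lower (2.94% and 1.65%), with a median of 0.08 beside 0.02. KO over WT in DPBS gave 2 higher and 3 lower of 63 (1.84% and 3.04%), median -0.07 beside -0.02. In papain it gave 5 higher and 9 lower of 75 (1.69% and 3.2%), median -0.01 beside -0.03. Many of these pairs rest on few UMIs, and the counts moved with the processing.

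**Figure D4:**
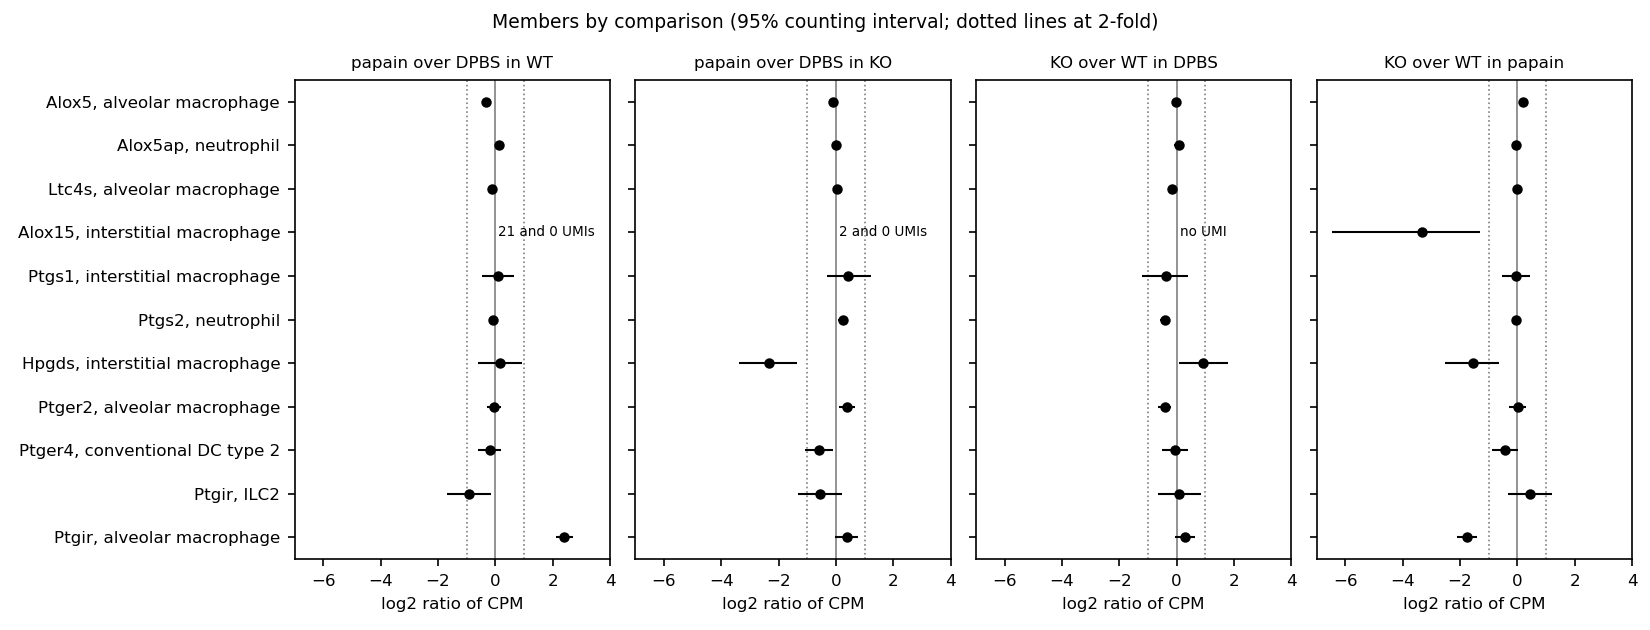
The log2 ratio of CPM (horizontal axis) of each gene in its leading class, and of Ptgir in alveolar macrophages, for the 4 comparisons (panels), with 95% counting intervals and dotted lines at 2-fold; where Alox15 had no UMI in a library its UMIs are written in place of a point. Apart from Alox15 and Hpgds in interstitial macrophages the leading-class values lie inside the 2-fold lines, while Ptgir in alveolar macrophages lies at 2.41 for papain over DPBS in WT.

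Ptgir differed between libraries in alveolar macrophages. Its level was 4.82 CPM (95% interval 4.02 to 5.72) in WT with DPBS and 5.90 CPM (4.95 to 6.98) in KO with DPBS. With papain it was 25.5 CPM (23.0 to 28.3) in WT and 7.62 CPM (6.05 to 9.49) in KO. Papain WT stood apart from the other 3 libraries. Papain over DPBS was 2.41 on the log2 scale in WT (2.11 to 2.71) and 0.37 in KO (-0.05 to 0.78), and KO over WT in papain was -1.74 (-2.11 to -1.39), where 1.49% of all genes in this class were at least 2-fold lower. Of alveolar macrophages, 22.5% had a Ptgir UMI in Papain WT against 6.13% to 9.44% in the others, and 2.82% against 0.143% to 0.385% after thinning, while 0.0885% to 0.286% of the shallower B cells had one. The UMIs were spread over 184 of 817 Papain WT cells with at most 7 in 1 cell.

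Alveolar macrophages formed 3 clusters, and Papain WT was the highest library in each. In Papain WT Ptgir was 20.1, 35.05 and 25.8 CPM in clusters c2, c7 and c15, and in the other libraries 3.67 to 8.06 CPM. The Papain WT alveolar macrophages also differed in other genes. Chil3, a chitinase-like protein of these cells raised in type 2 inflammation, was 31365 CPM there against 12050 to 13908 CPM in the other libraries, and Ccl17, a chemokine for T helper cells, was 155 CPM against 1.37 to 6.12 CPM, with its UMIs in 117 of the 817 cells. Of 4 dendritic cell genes, Cd209a and Flt3 were at 0.0953 to 0.477 CPM in the 4 libraries, while Clec10a was 1.37 CPM and Mgl2 2.37 CPM in Papain WT, against at most 0.333 and 0.185 CPM in the others. The 7 alveolar macrophage markers summed to 35709 CPM in Papain WT and 16701 to 18382 CPM in the others, all 7 detected in each. Chil3 is 1 of these 7 and made up most of each sum, so the higher sum is not separate from the Chil3 difference. The part of these differences in the Ptgir level was not tested. Papain WT is 1 library, so its mice, its preparation and its genotype cannot be told apart.

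Ptgir was higher with papain in both genotypes in an unnamed cluster. This cluster, m8, scored best for interstitial and next for alveolar macrophages, was led by Syngr1, Anpep and Inhba, and held 34 and 22 cells in WT and KO with DPBS and 133 and 30 with papain. Ptgir was 26.4 and 24.0 CPM in the DPBS libraries and 109 and 111 CPM in the papain libraries, a log2 ratio of 2.05 in WT (95% interval 1.36 to 2.82) and 2.21 in KO (1.34 to 3.19), and KO over WT in papain was 0.03 (-0.38 to 0.42). Ptgs2 there was 19.0 and 14.8 CPM in WT and KO with DPBS and 124 and 48.8 CPM in WT and KO with papain (2.71 and 1.72), with 85 of the 322 Papain WT UMIs in 1 cell. Alox5 was lower with papain, at 63.0 and 70.3 CPM in the DPBS libraries and 10.1 and 15.1 CPM in the papain libraries (-2.65 and -2.21). Other members differed between genotypes. Ptgs1 was 7.33 and 24.0 CPM in WT and KO with DPBS and 40.6 and 23.6 CPM with papain (2.47 and -0.03), from 5 UMIs in DPBS WT. Ptger4 was -0.85 in WT and 1.45 in KO (-0.08 to 3.26). Hpgds was 1.22 in WT (-0.12 to 2.91), with too few UMIs to compare in KO. Ptgir and Ptgs2 passed the UMI minimum only through the papain libraries, where they were high. WT and KO with DPBS had 18 and 13 UMIs of Ptgir and 13 and 8 of Ptgs2. Ptgs1 and Hpgds in WT likewise passed only through Papain WT, with 5 UMIs each in DPBS WT. Ptger4 in KO rested on 15 and 5 UMIs. Alox5 in KO passed only through DPBS KO, where it was high, with 9 UMIs in Papain KO. In this cluster 9.15% of all genes were at least 2-fold higher and 6.84% lower with papain in WT, and 7.19% and 6.43% in KO, against 1.8% and 1.33% in alveolar macrophages in WT. The clustering, and not a sort, sets which cells it holds, and without doublet removal 83.6% of its cells fell in a cluster of 2662 cells, where Ptgir was 2.57 in WT and 1.10 in KO, and Alox5 -0.57 and -0.12.

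Of the 1033 Ptgir UMIs of Papain WT cells, alveolar macrophages held 34.4%, m8 27.3%, the mixed monocyte cluster 8.42%, and m10, an unnamed cluster of 155 cells in that library that scored best for interstitial macrophages and next for cDC2, 7.26%. Whole libraries had 6.35 and 6.34 CPM in WT and KO with DPBS and 15.7 and 8.56 CPM in WT and KO with papain. The promoter window of Ptgir (build GRCm38.p6, chr7:16906240-16906489, plus strand) is shown for the same motifs, with GAGGAA in capitals.
Ptgir: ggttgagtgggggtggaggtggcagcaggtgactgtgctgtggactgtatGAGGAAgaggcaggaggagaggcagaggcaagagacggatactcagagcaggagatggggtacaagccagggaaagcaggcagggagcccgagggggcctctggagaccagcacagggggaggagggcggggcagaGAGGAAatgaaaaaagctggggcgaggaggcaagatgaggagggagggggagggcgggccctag
It holds GAGGAA on 2 occasions and none of the other 4 motifs.

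**Figure D5:**
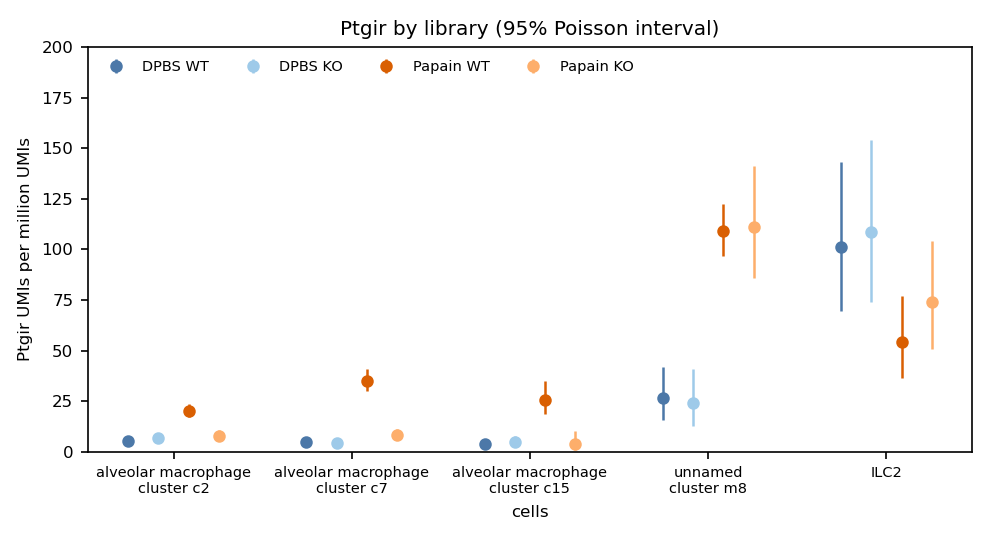
Ptgir CPM (vertical axis) in the 3 alveolar macrophage clusters, the unnamed cluster m8 and ILC2 (horizontal axis) for each library (colour), with 95% Poisson intervals. In the alveolar macrophage clusters only Papain WT is high (20.1 to 35.05 CPM), whereas in m8 both papain libraries are (109 and 111 CPM).

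In alveolar macrophages 2 further members were at least 2-fold higher with papain in WT, where 1.8% of all genes were, and none of the 10 members in KO (2.32%). Ptgs1 was 13.7 CPM against 6.78 CPM (log2 ratio 1.01, 95% interval 0.71 to 1.31), but 0.26 when cells were clustered without integration. Ptgs2 was 6.62 CPM against 2.41 CPM (1.46), with 30 of its 92 UMIs in 1 cell. Both remained low beside their leading classes.

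Interstitial macrophages, 30 to 82 cells a library, gave several differences between libraries. Ltc4s was 29.9 and 52.4 CPM in WT and KO with DPBS and 69.3 and 281 CPM in WT and KO with papain, with 293 of the 349 Papain KO UMIs in 13 cells. Papain over DPBS was 1.21 in WT and 2.42 in KO, but 0.03 and -0.15 at the finer clustering resolution of 1.6, and 3.48% and 6.71% of all genes in this class were at least 2-fold higher with papain in WT and in KO. The 7 alveolar macrophage markers summed to 68.4, 81.7, 341 and 156 CPM in this class, highest in Papain WT. They include Chil3, which was highest in Papain WT in alveolar macrophages as well. Their part in the Ltc4s values was not tested. Hpgds in Papain KO, at 14 UMIs, was lower than in DPBS KO (log2 ratio -2.33, 95% interval -3.37 to -1.35) and than in Papain WT (-1.55, -2.54 to -0.66), where 2.69% and 3.12% of all genes in this class were at least 2-fold lower. In DPBS KO 10 of the 27 Hpgds UMIs came from 1 cell, and without it the level there was 37.3 CPM in place of 56.6 CPM. The 6 B cell markers summed to 1246, 991, 593 and 401 CPM in interstitial macrophages, lowest in Papain KO, with all 6 detected in each library. Their part in the Hpgds values was not tested.

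In dendritic cells, monocytes and T cells the differences rested on small counts. In cDC2, Alox5 was 45.9 and 28.9 CPM in WT and KO with DPBS and 6.46 and 36.9 CPM in WT and KO with papain, with Papain WT (8 UMIs) the only low library, and Ptgs2 was 71.0 CPM in Papain WT against 194 in DPBS WT (-1.45), where 4.48% of all genes in cDC2 were at least 2-fold lower. The latter was -0.33 as a mean of per-cell values, and the immediate early genes summed to 14664 CPM in DPBS WT and 5824 CPM in Papain WT. In the cDC2 the 5 markers of mature dendritic cells summed to 99.8, 471, 710 and 215 CPM, with 3 or 4 of them detected. The 7 alveolar macrophage markers, which include Chil3, summed to 99.8, 78.3, 337 and 52.0 CPM, with 3 to 7 detected. Both sums were highest in Papain WT. The part of either marker list in the cDC2 values was not tested. Among CD4 T effector and regulatory cells, Ptgir was 18.0 CPM in Papain WT (39 UMIs, 271 cells) and 3.12 to 4.76 CPM in the other libraries, each from 2 or 3 UMIs. In the same class Ptger2 had 28 UMIs in Papain WT and 2 in DPBS WT (log2 ratio 2.15, 95% interval 0.16 to 5.26), and Alox5ap 46 and 6 UMIs (1.28, 0.05 to 2.80). All 3 members were at least 2-fold higher with papain in WT, where 9.82% of all genes in this class were. Each of the 3 passed the UMI minimum only through Papain WT, where it was high. Ptger4 in type 17 T cells was 15.5, 56.2, 83.2 and 52.6 CPM, lowest in DPBS WT with 3 UMIs, and in this class 9.24% of all genes were at least 2-fold higher with papain in WT. In that comparison Ptger4 also passed the UMI minimum only through Papain WT. Ptgs2 in type 17 T cells of DPBS KO came from 43 UMIs in 3 cells, 32 of them in 1, with 0 UMIs in DPBS WT.

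The wider pathway was read from a list of 39 other genes of arachidonate release, leukotriene and prostanoid synthesis, breakdown and reception. In their leading classes 20 of them could be compared in each of the 4 comparisons, and 0 were 2-fold apart in any, where 1.7% to 3.3% of all genes in those classes were in each direction. Over all 17 classes, papain over DPBS gave 13 higher and 7 lower of 182 pairs in WT (background 3.79% and 2.04%) and 5 higher and 1 lower of 159 in KO (2.94% and 1.65%). KO over WT gave 0 higher and 5 lower of 163 in DPBS (1.84% and 3.04%), and 9 higher and 12 lower of 187 in papain (1.69% and 3.2%). Alveolar macrophages led for Mgst3 (157 CPM), a membrane glutathione transferase, and Tbxas1 (157 CPM), the thromboxane synthase, while phospholipase Pla2g4a, which frees arachidonate, had 33.2 CPM there. Neutrophils led for Cyp4f18 (674 CPM), a cytochrome that inactivates leukotriene B4, and Ggt5 (78.1 CPM), which trims leukotriene C4. Nonclassical monocytes led for Hpgd (378 CPM), the enzyme that breaks down prostaglandins, and Dpep2 (106 CPM), a dipeptidase that acts on leukotriene D4. ILC2 led for the receptors Ltb4r1 (261 CPM) and Cysltr1 (61.6 CPM). The other genes at 50 CPM or more were Lta4h in NK cells (96.9 CPM), Mgst2 in other T cells (65.3 CPM) and Ptges3 in cDC1 (173 CPM). Levels are medians of 4 libraries and are not compared between genes.

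The genes most like each member in pattern over the 17 classes, among 8412 genes with at least 20 CPM in 1 class, were found by Pearson's r of the mean log2(CPM + 1), given without a test since classes share libraries. For Alox5 they were Rab11fip5 (r = 0.91), Cxcl2 and Scamp1, and for Alox5ap Il13ra1 (0.99), Csf2ra and Tgfbi. Ltc4s was most like Slc9a4 (0.97), Lhfpl2 and Gm41307, and Ptgs2 most like Kdm6b (0.94), Ptafr and Zswim4. Ptgs1 was most like Pf4 (0.91), Cd63 and Mdm2, and Hpgds most like Rasgrp3 (0.85), Sbds and Hepacam2. Pf4 was itself a marker used to name interstitial macrophages. For the receptors these were Aga (0.82), Vps54 and Ero1l for Ptger2, Pdia3 (0.87), Fbxw11 and Ptprs for Ptger4, and Ypel2 (0.86) and Rb1 for Ptgir. For Alox15, whose few UMIs make its pattern uncertain, they were Cd209d (0.97), Fcrls and Ehf.

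In the GENCODE M21 annotation of GRCm38, Alox5 lies at chr6:116410077-116461178 and Alox5ap at chr5:149264767-149288153. Ltc4s lies at chr11:50236461-50238616 and Alox15 at chr11:70344152-70352031. Ptgs2 lies at chr1:150100031-150108227, Ptgs1 at chr2:36230426-36252272 and Hpgds at chr6:65117293-65144908. Ptger2 lies at chr14:44988195-45003820, Ptger4 at chr15:5206661-5244187 and Ptgir at chr7:16906490-16910905. Alox5ap, Ltc4s, Ptger2 and Ptger4 each overlap a counted gene on the other strand, Gm19719, Gm26542, Gm17173 and Ttc33.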

How the data were processed

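Single-cell RNA of CD45.2+ lung cells was measured in 4 libraries, 1 for each genotype and treatment as the labels give them. The deposited matrices hold raw UMI counts per gene and barcode, which the authors made with Cell Ranger (version 3.1.0 per the file headers) on mm10. 

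Barcodes with more than 200 genes and under 15% mitochondrial UMIs were kept. The highest Scrublet scores (scanpy 1.11.5, Python 3.11.15) were removed at 0.8% per 1000 barcodes, 1670 in all. Seurat 5.3.0 under R 4.3.3 was used to integrate the libraries and to cluster cells at resolution 0.8, from 30 dimensions of 2000 variable genes, giving 44 clusters. Clusters were named by marker scores, under rules set after the clusters had been seen. UMIs were summed per class and library and given as CPM, with exact Poisson intervals for a level and exact conditional intervals for a ratio. Shares have exact binomial intervals and were also computed at 1000 UMIs a cell, which left out 137 cells. Calls needed 20 UMIs and a 2-fold ratio. With 1 library a group there was no test. The calculation was tested on simulated data.

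All 10 members were named. Of the 39 genes of the wider list, those whose leading class reached 50 CPM were named, and Pla2g4a was named below that level. Of the genes most like each member in pattern, 1 is not reported here. Members and lists were chosen with earlier results of these data known. TMM factors came from edgeR 4.0.16. The alternatives were 7 planned settings and the thinning, and leaving out the cell of most UMIs and following cluster m8 were added after seeing the data. Promoter sequences are from RefSeq (GRCm38.p6), which matched 8 members, not Alox5ap or Alox15.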

Additional observations from a re-analysis of the deposited data

Results flagged for a closer look

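The papain over DPBS log2 ratio had opposite signs in WT and KO for 5 pairs of member and class, with both 95% counting intervals clear of 0. Only pairs with at least 20 UMIs in both comparisons were looked at. The share of all genes that meets this rule was not computed, so the 5 pairs have no background to be set against. The difference between genotypes was not tested, since each group is 1 library. Alox5ap in alveolar macrophages was -0.15 in WT and 0.0846 in KO, and in interstitial macrophages -0.17 and 0.54. Ptgir in classical monocytes was -0.99 and 1.2, but -0.35 and -0.26 with no doublet removal, where the signs were no longer opposite. Ptger4 in cDC1 was 0.66 and -0.62. Ptgs2 in nonclassical monocytes was -0.82 and 1.498, but 0.02 and 0.78 when cells were clustered without integration, where the signs were again not opposite.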

How the results depend on the processing

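The leading class of all 10 members was the same under every setting tried. The TMM factors and the UMI minimum do not enter the levels, so those settings could not change it. For Alox15 the leading class had a median of only 0.805 CPM. Counts of pairs of member and class at least 2-fold apart are given first. Without the minimum of 20 UMIs they were 27 higher and 10 lower for papain over DPBS in WT, 18 lower in KO, 19 higher and 9 lower for KO over WT in DPBS, and 12 higher and 23 lower in papain. Without integration they were 2 higher and 3 lower for papain over DPBS in KO, and for KO over WT 1 higher in DPBS and 3 higher in papain. At resolution 1.6, KO over WT in DPBS gave 6 higher and 1 lower. With cells of more than 500 genes and under 10% mitochondrial UMIs it gave 4 higher, and with no doublet removal 1 lower. The mean of per-cell CPM gave 7 higher for papain in WT. Without the cell of most UMIs, chosen after seeing the data, KO over WT in DPBS gave 1 higher and papain in KO 3 lower. Among values at least 2-fold apart, signs reversed for Alox15 (0.61, KO over WT in papain) and Ltc4s (-0.15, papain in KO) in interstitial macrophages at resolution 1.6, for Ptger4 in memory CD8 T cells without integration (-0.22 in KO and -0.00796 in WT), and for Ptgir in classical monocytes with no doublet removal (-0.26 in KO). The cause was not tested. Ptgir in alveolar macrophages ranged from 1.74 to 2.86 for papain in WT, from -0.06 to 0.91 in KO, and from -1.92 to -1.51 for KO over WT in papain.

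At 1000 UMIs a cell, Alox5 with Alox5ap was seen in 8.36% of alveolar macrophages, 3.54% of interstitial macrophages and 10.4% of neutrophils, all 3 leukotriene C4 genes in 3.72% and 0.885% of the macrophages, and Ptgs1 or Ptgs2 with Hpgds in 0.0253% and 0%. No paired analysis was possible because each group is 1 library. Leaving out a replicate was not possible for the same reason. Low counts limit the values in small classes.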
